A study of Drosophila melanogaster with 18 samples.

Results

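Haploid embryos in early cycle 15 were compared with diploid embryos in late cycle 14, across all genes. The arrays were taken by their titles, 3 of haploid early cycle 15 and 3 of wild-type late cycle 14, which is 6 of the 18 arrays of the series. The haploid embryos came from parents labelled maternal haploid with a histone H2-GFP marker, and were frozen 15 min after the division of nuclear cycle 14. The diploid embryos came from w parents with the same marker, so both groups carry the GFP fusion, and were frozen 40 min after the division of cycle 13. Both groups are thus of similar age after division 13, but the haploids had divided once more. The time between divisions 13 and 14 in haploids is not in the labels, so the exact gap in age is not known here. Each array measured total RNA of a separate pool of about 50 hand-staged whole embryos. Ploidy, the genotype of the mothers and any other difference between the stocks cannot be told apart in this design.

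In the fly embryo, nuclei first divide in a shared cytoplasm with little transcription, using RNA that the mother loaded into the egg. A long pause then follows in which cell membranes grow in, the zygotic genome is widely transcribed and many maternal RNAs are destroyed. The timing of the pause depends on the amount of DNA per volume of cytoplasm, and embryos with a single set of chromosomes make an extra division before they pause and form cells.

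At this similar age many patterning genes that build the body axis were lower in the haploids, with the pair-rule gene opa at 57.8 against 746 in mean intensity. The early zygotic gene nullo and the maternal transcript bcd were higher, at 2302 against 665 and 1571 against 334. None of 31 cytoplasmic ribosomal protein genes was called. Differences are given as log2 of haploid early cycle 15 minus diploid late cycle 14 with the standard error of the limma fit, and array values are quantile-normalised intensities, which cannot be compared between genes. A gene was called at an adjusted p below 0.05.

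Of 10035 tested genes, 1045 were called higher in the haploids (10.4%) and 1040 lower (10.4%). At least 2-fold were 278 of the higher genes (2.77%) and 423 of the lower genes (4.22%). Among the 5059 genes above background on all 6 arrays, 877 higher and 763 lower genes had no overlap between the arrays of the groups. These are larger shares than over all tested genes, which include dim genes. Counts of the lists below are to be read with both in view. For 38 higher and 78 lower genes no array of the dimmer group reached background, and folds of these are lower bounds. Over probe sets, 1259 were called higher (8.65%) and 1258 lower (8.64%) of 14560. An equal split follows in part from the scaling, because quantile normalisation sets all arrays to 1 distribution. On the deposited scale 27.0% of the calls were higher, with ribosomal protein centring 33.5%, and with centring on the poly-A spike controls 82.1%, where the median over all probe sets moved to 0.38.

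Arrays of 1 group correlated at 0.969 to 0.980 over 8486 probe sets, and arrays of different groups at 0.933 to 0.947. In group means, diploid late cycle 14 correlated at 0.956 with haploid early cycle 15 and at 0.959 with haploid late cycle 15. Before scaling, the upper quartile of intensity was 96.4 to 121.6 on the haploid arrays and 128.0 to 136.0 on the diploid arrays. The part of this gap in the results was not tested beyond the scalings named here. The GAPDH 3′ control transcript stood at 1328 to 1546 in the haploids and 879.6 to 1162 in the diploids. The probe set of mh, the gene altered in maternal haploid mothers, was below background on all haploid arrays and at 39.3 to 45.8 on the diploid arrays, near the background of 31.9. That difference passed the test (-2.20 ± 0.54, adjusted p = 0.00453) as at least 1.30-fold. The call was lost when values below background were set to background, so it rests on levels that are not resolved.

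**Figure D1:**
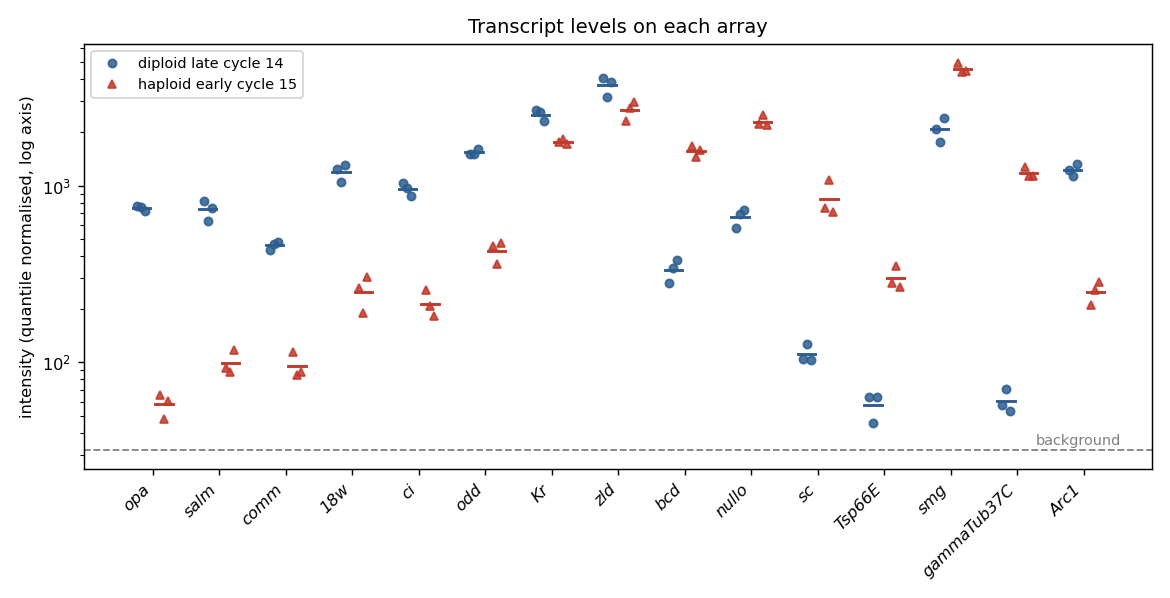
Quantile-normalised intensity (log axis) of 15 genes on the 3 arrays of diploid late cycle 14 (circles) and the 3 arrays of haploid early cycle 15 (triangles), with group means as bars and the background as a dashed line. The groups do not overlap for any gene shown, with opa at 47.8 to 65.2 in haploids against 714 to 766 in diploids, and bcd at 1452 to 1671 against 281 to 378. Genes named for the largest differences were taken only from genes without overlap, so for these the separation was a condition of the choice.

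Pair-rule genes divide the embryo into segment-wide stripes. Of 9 tested, 6 were lower in the haploids and none higher, with a median difference of -0.89 against 0.01 over all tested genes. This was not particular to the later age. In haploid cycle 14 against diploid early cycle 14, 6 were also lower and none higher, at a median of -0.88. The zinc finger gene opa, which acts late in this tier, read 65.2, 47.8 and 60.3 in the haploids and 766, 759 and 714 in the diploids. The haploid arrays were all far below the diploid arrays, a difference of -3.70 ± 0.59 (adjusted p = 4.63e-05). The repressor gene odd read 455, 359 and 471 against 1516, 1507 and 1604, again without overlap (-1.86 ± 0.12, adjusted p = 1.08e-10).

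The primary pair-rule gene hry had haploid arrays at 1419, 909 and 1292, and the diploid arrays stood at 3587, 3190 and 3899. Its groups were also apart (-1.58 ± 0.12). The later gene slp2 was above background on 1 of 3 haploid arrays, at means of 28.4 and 98.4 (-1.80 ± 0.38, adjusted p = 0.00133). The homeobox genes ftz and prd were lower by smaller amounts, at -0.89 ± 0.12 and -0.73 ± 0.13. The stripe gene eve missed the threshold with -0.46 ± 0.16 (adjusted p = 0.0523), although its haploid arrays, at 214 to 225, all lay under its diploid arrays, at 262 to 338.

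Gap and terminal genes, which read the maternal gradients and define broad domains and the 2 ends, were lower for 11 of 18 with none higher, at a median of -0.59. In haploid cycle 14 against diploid early cycle 14, 12 were lower and none higher, at a median of -0.88. The tail gene byn read 82.7, 93.4 and 126 in haploids and 259.9, 231 and 236 in diploids (-1.29 ± 0.19, adjusted p = 1.95e-05). The head gap gene ems was lower, at -1.15 ± 0.20, as was the POU gene nub, at -1.11 ± 0.21, both without overlap of arrays. One of the dim probe sets of nub, below background on all 6 arrays, leaned the other way without a call (0.51, adjusted p = 0.765).

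The gene knrl, a close relative of kni, was below background on all haploid arrays and at 82.0 to 98.3 on the diploid arrays, at least 2.76-fold lower (adjusted p = 0.00538). The trunk gap gene Kr read 1766, 1827 and 1728 against 2661, 2604 and 2308 (-0.51 ± 0.07, adjusted p = 1.35e-05), and its groups did not overlap.

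Similar sizes were found for kni (-0.64 ± 0.12), hkb (-0.62 ± 0.11), tll (-0.57 ± 0.11) and gt (-0.56 ± 0.14). The other 7 of the 18 were not called. Among these was the gap gene hb, at 3058, 2430 and 3313 against 2954, 2626 and 3262, where the groups overlapped (-0.01 ± 0.13, adjusted p = 0.971). With spike centring, 4 of the 18 gap and terminal genes and 3 of the 9 pair-rule genes were called lower, and Kr, kni, hkb, tll, gt, ftz, prd and slp2 lost their calls. The other 3 scalings gave 12 and 7.

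Segment polarity genes fix positions within each segment and act after the pair-rule genes. Of 8 tested, 2 were lower and none higher. The Hedgehog pathway transcription factor ci read 255, 207 and 182.5 in haploids against 1030.3, 973 and 869 in diploids (-2.17 ± 0.23, adjusted p = 2.23e-07). The haploid arrays of ci all lay well below the lowest diploid array. The Wingless pathway inhibitor nkd was lower, at -1.13 ± 0.37 (adjusted p = 0.0373), a call lost when any of 5 arrays was left out.

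Genes above background on all 6 arrays, whose groups did not overlap, were ranked in this direction. The 10 largest called differences among them included other transcription factors. The homeotic regulator salm read 93.1, 87.8 and 118 in haploids against 822, 633 and 745 in diploids (-2.88 ± 0.42, adjusted p = 1.62e-05). The related head genes danr and dan were lower, at -2.50 ± 0.38 and -2.31 ± 0.46. That the groups of these 3 genes were apart was a condition of this choice. It was also a condition for opa, which ranks above them, and for the largest higher differences. In haploid late cycle 15, 40 min after division 14, the means were 990 for salm, 768 for danr and 971 for dan, against 733, 389 and 284 in diploid late cycle 14.

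Among genes of cell formation and cell movement, the Toll-family receptor gene 18w, read 262, 189 and 303 in haploids and 1242, 1053 and 1300 in diploids (-2.27 ± 0.22, adjusted p = 3.84e-08). The apical polarity genes crb and sdt were lower as well, at -0.87 ± 0.08 and -1.29 ± 0.17. Other probe sets of sdt, 3 in all and 2 of them below background on all 6 arrays, had differences above 0 that were not called.

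In contrast nullo, needed at the base of the ingrowing membranes, read 2222, 2494 and 2190 in haploids and 577, 688 and 729 in diploids. The groups were well apart (1.80 ± 0.12, adjusted p = 1.85e-10). The actin regulator bnk, which acts in the same step, was at 449.6, 465.5 and 504 against 221, 257 and 288 (0.90 ± 0.12). The cellularization genes slam and Sry-alpha were lower, at -0.48 ± 0.10 and -0.49 ± 0.09 at high intensity in both groups, calls lost with spike centring. The whole list of cellularization and gastrulation genes had 4 higher (21.1%) and 6 lower (31.6%) of 19, against 10.4% over all genes.

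The list of early zygotic genes of the syncytial cycles, which are mostly short and start before the pause, was divided, with 13 of 28 higher and 11 lower, though with spike centring 15 were higher and 1 lower. Its higher members included the proneural gene sc, which counts as an X-chromosome signal in sex determination. It read 748, 1072 and 711 in haploids against 105, 128 and 103 in diploids (2.90 ± 0.17, adjusted p = 1.95e-11). Every haploid array lay far above every diploid array, though the largest differences were named only from genes whose groups did not overlap.

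The neighbours of sc in the achaete-scute complex, l(1)sc and ac, were higher as well. The arrays of l(1)sc were at 214, 285 and 192 against 32.8, 47.1 and 27.0, with 2 of 3 diploid arrays above background (2.71 ± 0.16). Those of ac were at 259, 374 and 305 against 121, 125 and 86.3 (1.50 ± 0.14). The proneural gene amos, outside the complex, differed by 1.78 ± 0.14. The genes CG13712 and CG16813 of this list differed by 2.33 ± 0.17 and 1.86 ± 0.21, and CG13716, which is not on the list, by 2.89 ± 0.16. No role is given here for these 3.

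Dorsal genes of the Dpp pathway, a BMP signal, held 4 higher (21.1%) and 3 lower (15.8%) members of 19, against 10.4% over all genes. The dorsal homeobox gene zen2 read 708, 877 and 763 in haploids against 304, 302 and 325 in diploids (1.33 ± 0.11, adjusted p = 5.73e-09). Its neighbour zen was higher by 0.56 ± 0.08 and the BMP ligand scw by 0.36 ± 0.09, the latter a call lost on the deposited scale. Lower were the blood and fat body GATA factor srp (-1.26 ± 0.16), the amnioserosa gene Doc1 (-0.56 ± 0.11) and dpp itself (-0.44 ± 0.13). The dpp call was lost when any of 4 arrays was left out.

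In the mesoderm and neuroectoderm list 4 of 15 were higher, 3 of them the achaete-scute genes, and 6 lower. The mesoderm gene twi read 955, 621 and 947 in haploids against 1375, 1272 and 1352 in diploids (-0.69 ± 0.13, adjusted p = 0.000277). For sna, a repressor in the same cells, the groups overlapped (-0.14 ± 0.10, adjusted p = 0.411). The neuroectoderm genes SoxN and Cyp310a1 were lower, at -1.14 ± 0.17 and -0.91 ± 0.12. The FGF receptor gene htl was above background on 2 of 3 haploid arrays and had a marginal call (-1.71 ± 0.56, adjusted p = 0.0365) that was lost in 12 of 17 alternatives.

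**Figure D2:**
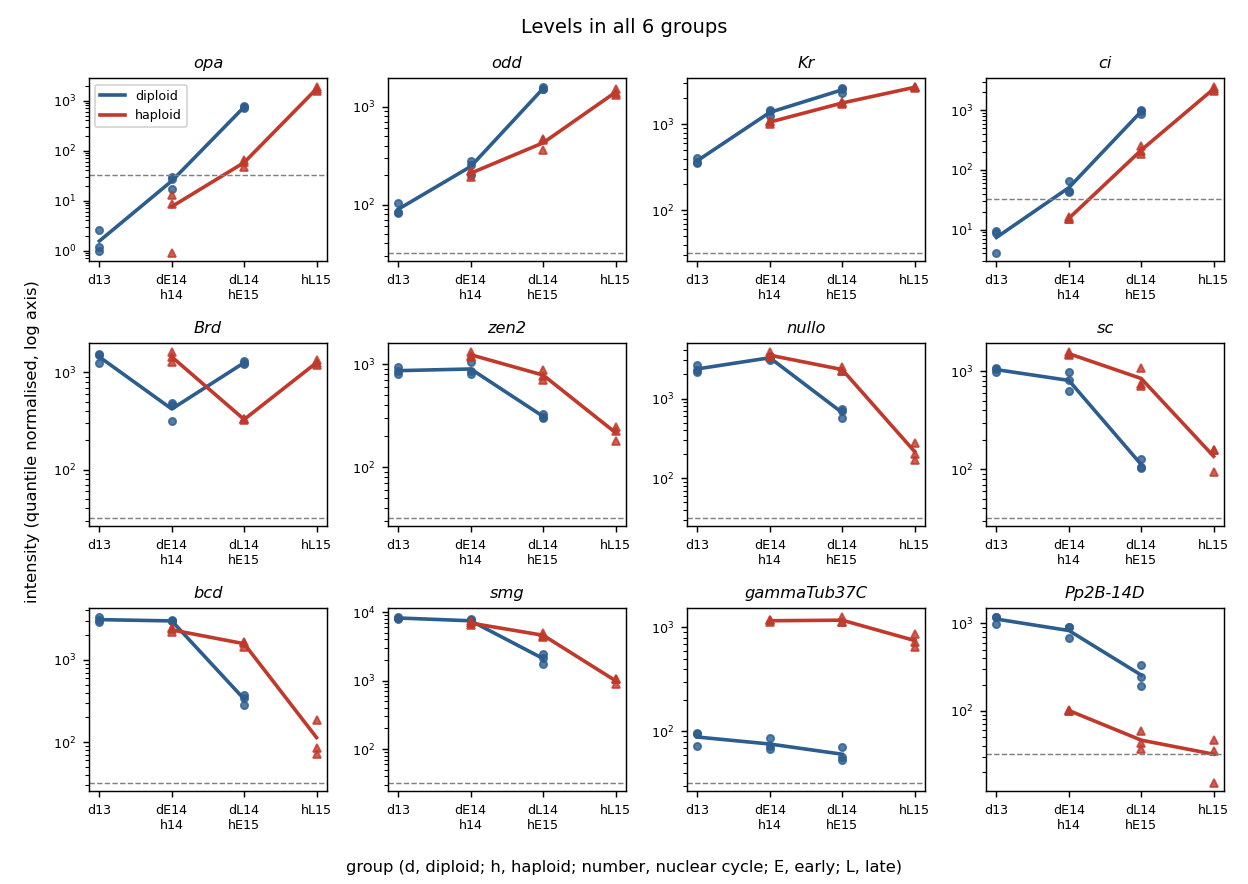
Quantile-normalised intensity (log axis) of 12 genes in all 6 groups, 3 arrays each, with diploid groups in blue circles, haploid groups in red triangles, lines through group means and the background dashed. Groups of similar age share a position on the horizontal axis, so haploid early cycle 15 stands over diploid late cycle 14; opa, odd, Kr and ci are lower there in haploids and reach 1723, 1411, 2701 and 2284 in haploid late cycle 15.

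Secreted and surface proteins that later guide axons and cell contacts were called lower for 4 of 20 and higher for 1. The gene comm, which controls the Robo receptor, read 114, 84.6 and 88.0 in haploids against 429.8, 469.9 and 478 in diploids (-2.28 ± 0.21, adjusted p = 1.78e-08). The receptor gene Tollo was lower, at -1.35 ± 0.13, as was the Netrin receptor gene fra, at -0.52 ± 0.12. The arrays of the groups were apart for all 3 genes. The epidermal factors grh and rib were lower too, at -1.18 ± 0.23 and -1.14 ± 0.12, the called members among 5 tested in the epidermis, trachea and cuticle list. A second probe set of grh, above background on all 6 arrays, gave -0.13 (adjusted p = 0.805), so the grh difference is uncertain. The death ligand gene egr, a TNF, stood at 649 to 707 against 1119 to 1250 (-0.79 ± 0.12).

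Other genes far lower in the haploids were oys, a membrane-bound acyltransferase gene, at -2.49 ± 0.34 and Herp, of the endoplasmic reticulum stress system, at -2.36 ± 0.22. CG13339, CG10283, CG5199 and NC2alpha were below background on all haploid arrays. CG13339 was at 146 to 180 on the diploid arrays, at least 5.23-fold higher than in haploids. CG10283, CG5199 and NC2alpha, a subunit of a general transcription repressor, had bounds of at least 4.38-fold, 3.23-fold and 3.53-fold.

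Maternal transcripts cleared at the transition were higher in haploids for 12 of 30 and lower for 3, with a median of 0.28. In haploid cycle 14 against diploid early cycle 14, 3 were higher and 7 lower, at a median of -0.13. Among the 12 was gammaTub37C, which was already higher by 3.95 in that earlier comparison. The anterior determinant bcd read 1671, 1452 and 1591 in haploids against 281, 343 and 378 in diploids (2.24 ± 0.20, adjusted p = 8.76e-09). Every haploid array was far brighter than any diploid array, and a second probe set of bcd gave 2.76. The gene swa, which is needed to localise bcd RNA, read 471, 478 and 401 against 139, 174 and 171 (1.48 ± 0.12).

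The RNA-binding protein gene smg drives the destruction of many maternal transcripts and is itself maternal. Its arrays were at 4920, 4367 and 4452 in haploids and 2099, 1768 and 2403 in diploids, a 2.21-fold difference (1.14 ± 0.09, adjusted p = 1.33e-09). The germ plasm genes osk and gcl were higher by 0.79 ± 0.19 and 0.49 ± 0.10, and the embryonic linker histone gene BigH1 by 0.33 ± 0.10. The calls of osk and BigH1 were lost on the deposited scale, where 6 of the 30 maternal genes were higher and 3 lower.

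Of the 3 maternal genes that were lower, the 2 with the largest differences are given here. The translational repressor gene brat read 201, 186 and 227 in haploids against 519.6, 467 and 489.7 in diploids (-1.27 ± 0.17, adjusted p = 7.1e-06). Its haploid late cycle 15 mean was 739, above the 204 of early cycle 15. The thioredoxin gene dhd was at 387 against 783 in mean (-1.002 ± 0.15), and it was already lower in haploid cycle 14, at 304 against 736 in diploid early cycle 14.

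Other genes whose difference grew most between the ages included Tsp66E, a tetraspanin, which read 279.5, 351 and 266 in haploids against 63.3, 45.4 and 63.3 in diploids (2.39 ± 0.15, adjusted p = 2.34e-11). CG32365 differed by 2.36 ± 0.18 and the carbonic anhydrase gene CAH2 by 1.87 ± 0.20. The insulin-pathway factor gene foxo and the kinase gene Sik3 were below background on all diploid arrays and at least 4.04-fold and 3.62-fold brighter in haploids. All 5 were above background on every array of diploid cycle 13. All but Tsp66E, at 33.8, had means under background in haploid late cycle 15.

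Germ cell markers gave 3 higher (18.8%) and 1 lower (6.25%) of 16, against 10.4% in each direction over all genes. That share includes dim genes and is a low mark here, as none of the 16 was below background on all 6 arrays. Beside osk and gcl, the piRNA pathway gene aub was higher by 0.25 ± 0.08 (adjusted p = 0.0394), a marginal call. The germ plasm gene tud was lower (-1.42 ± 0.23), with 1 of 3 haploid arrays above background. The summed level of all 16 markers was 9165 to 10760 on the haploid arrays and 8989 to 9415 on the diploid arrays. Whole embryos were measured, so fewer cells of a type and less RNA per cell cannot be told apart for this or any other cell type.

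Markers of other tissues were low. Of 13 egg shell and yolk protein genes of the mother, 6 were below background on all 6 arrays. Among the 13, 2 of the 12 tested were called higher and none lower. The list sums were 244 to 477 in haploids and 190.4 to 196 in diploids. The share of such RNA in the higher maternal transcripts was not tested. All 7 muscle and blood genes and 7 of the 8 nervous system genes on the array stayed under background on all 6 arrays. The epidermis, trachea and cuticle sum was 1244 to 1471 against 2697 to 2949, with 6 of 9 genes below background throughout.

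Regulators of the transition itself gave 6 higher and 7 lower of 25. The pioneer factor gene zld, which opens the early zygotic genome, read 2327, 2765 and 2976 in haploids against 4047, 3170 and 3851 in diploids. The groups did not overlap, but the difference was small (-0.46 ± 0.13, adjusted p = 0.0126) and turned to 0.014 with spike centring. Its call was also lost with median centring, without the intensity trend, and when any of 3 arrays was left out. The GAGA factor gene Trl was lower, at -0.51 ± 0.12. Nelf-E, a subunit of the complex that pauses RNA polymerase, read 715.5, 1043 and 961 against 302.5, 321 and 258 and was higher (1.61 ± 0.13, adjusted p = 2.79e-09). In haploid cycle 14 against diploid early cycle 14, Nelf-E was already higher, at 1.20.

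Haploids in early cycle 15 had just passed a division that the diploids had not made. Genes of mitotic cyclins, kinases and regulators were split, with 5 higher and 4 lower of 26, against 10.4% in each direction over all genes. Before that division, in haploid cycle 14 against diploid early cycle 14, 5 were higher and 7 lower. The Cdc25 phosphatase gene twe, which starts mitosis, read 1717, 1948 and 1648 in haploids against 1032, 899 and 1069 in diploids (0.82 ± 0.11, adjusted p = 5.15e-06). The securin gene pim, which binds and restrains the protease separase, was at 3457 to 3797 against 2181 to 2579 (0.65 ± 0.07).

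CycD was higher by 0.71 ± 0.08, and for CycB, whose protein drives entry into mitosis, the difference was 0.14 ± 0.06 (adjusted p = 0.116). The activator of cyclin destruction in G1, fzr, read 222, 175.5 and 193 against 440.1, 454 and 408.5 and was lower (-1.15 ± 0.14, adjusted p = 1.09e-06). Already in haploid cycle 14 against diploid early cycle 14 fzr was lower, at -1.39, and the change between these comparisons was not called. E2f2, which represses transcription of cycle genes, was lower, at -0.74 ± 0.13.

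Genes that stop the cycle or answer damaged DNA gave 5 higher and 5 lower of 17. This split depended on scaling, with 2 and 5 on the deposited scale and 4 and 1 with spike centring. The mitotic brake genes Z600, also called frs, and trbl were lower, at 4983 against 7900 in mean (-0.67 ± 0.09) and 1024 against 1566 (-0.63 ± 0.12). Their haploid late cycle 15 means were 7401 and 1368. The Chk1 kinase gene grp was lower, at -0.31 ± 0.08, but its other probe sets, 2 in all and above background on all 6 arrays, gave -0.13 (adjusted p = 0.803) and 0.02 (adjusted p = 0.984), so its difference is uncertain. Spike centring turned it to 0.12, and the call was lost with median centring, without the intensity trend, and when either of 2 arrays was left out.

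Of the 5 higher members, tefu and mus304 differed most. The ATM kinase gene tefu read 189.9, 229 and 212 against 76.0, 57.3 and 55.0 (1.75 ± 0.17, adjusted p = 4.15e-08), and mus304, the ATR partner, 233.5, 316 and 239.6 against 95.1, 95.2 and 92.8 (1.47 ± 0.13). The haploid arrays of both genes all lay above the diploid arrays. In haploid cycle 14 against diploid early cycle 14, tefu and mus304 were already higher, at 1.36 and 1.28. The other 3 were the break repair gene rad50 (0.55 ± 0.14), the damage response factor gene p53 (0.30 ± 0.08) and Claspin (0.50 ± 0.15), a Chk1 adaptor gene whose groups overlapped. These calls were lost on the deposited scale. In the earlier comparison rad50 was higher (0.76), and p53 and Claspin were not called. None of the 5 had a called change between the ages. The end-joining gene Ku80 was lower, at -1.04 ± 0.28 with 2 of 3 haploid arrays above background.

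DNA replication genes gave 4 higher (12.5%) and 7 lower (21.9%) of 32, with a median of -0.16, against 10.4% in each direction over all genes. The single-strand binding protein gene RPA1 read 60.5, 72.8 and 39.6 in haploids against 177, 179 and 146 in diploids (-1.57 ± 0.18, adjusted p = 6.99e-07). The clamp loader subunits went opposite ways. RfC4 was at 377, 441 and 397 against 138, 131 and 136 (1.59 ± 0.13), while RfC3 was lower (-0.83 ± 0.21). In haploid cycle 14 against diploid early cycle 14, RfC4 was already higher, at 2.12, and RfC3 was not called.

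The polymerase gene PolA1 and the helicase gene Mcm3 were lower, at -0.66 ± 0.12 and -0.64 ± 0.17. The licensing factor gene dup, which loads that helicase, read 3000, 2331 and 2934 against 1530, 1458 and 1664 and was higher (0.82 ± 0.09, adjusted p = 5.11e-07). Histone genes were measured by few probe sets. Slbp, which binds the end of histone messages, was lower, at -1.12 ± 0.11, with haploid arrays at 479 to 556 and diploid arrays at 992 to 1211.

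Sex determination and dosage compensation genes gave 3 higher and 6 lower of 20. The dosage compensation gene msl-2, active in males, read 146, 144 and 155 in haploids against 338, 303 and 335 in diploids (-1.13 ± 0.15, adjusted p = 7e-06). The helicase gene mle of the same complex was lower, at -0.71 ± 0.15. The switch gene Sxl, which is on in females, read 3269, 3570 and 3577 against 2564, 3099 and 2649, and its difference was not called (0.33 ± 0.16, adjusted p = 0.197).

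Of the factors that act on Sxl, sc was higher as given above, while the X-linked ligand gene upd1 and the partner factor gene da were lower, at -0.59 ± 0.09 and -0.998 ± 0.08. The splicing factor gene tra2 read 684, 805 and 633 against 251, 298 and 271 (1.37 ± 0.09). The sex makeup of the pools is not in the labels.

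Notch pathway genes, with the Bearded and Enhancer of split members, were lower for 5 of 14 (35.7%) and higher for 2 (14.3%), against 10.4% over all genes. Brd itself, an inhibitor of Notch signalling through Neuralized, read 333, 329 and 324 in haploids against 1301, 1227 and 1251 in diploids (-1.94 ± 0.12, adjusted p = 2.34e-11). Its neighbours Ocho and BobA were lower, at -1.35 ± 0.12 and -0.92 ± 0.10. Tom, of the same gene cluster, was higher, at 2467.5, 2399 and 2501 against 2031.5, 1816 and 1972 (0.34 ± 0.09, adjusted p = 0.0117), a call lost on the deposited scale. The ligand gene Delta and the ubiquitin ligase gene neur were lower, at -0.76 ± 0.10 and -0.97 ± 0.11, and E(spl)m4-BFM was higher (0.69 ± 0.11).

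Brd had neither a single rise nor a single fall over the stages. In diploids its mean was 1445 in cycle 13, 421 in early cycle 14 and 1259.9 in late cycle 14. In haploids it was 1446 in cycle 14, 329 in early cycle 15 and 1261 in late cycle 15. The low point of each ploidy fell on the group collected 15 min into the paused cycle.

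**Figure D3:**
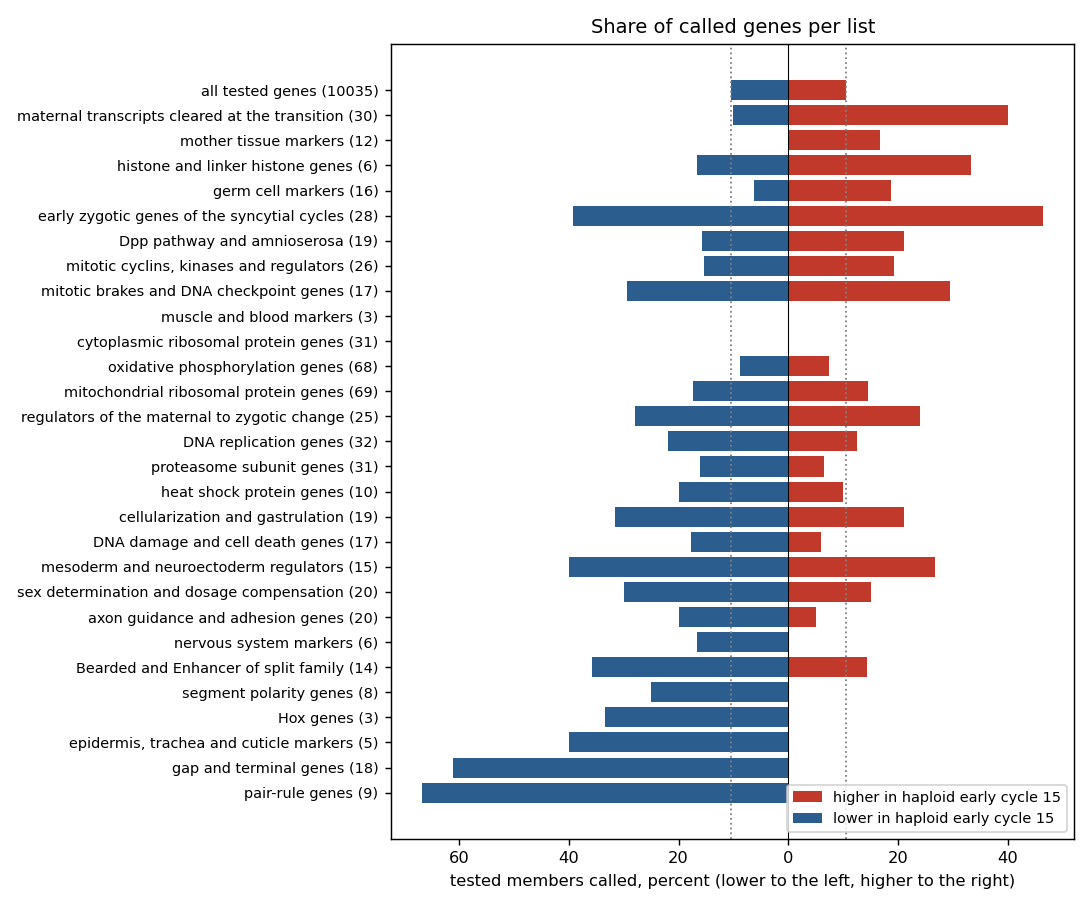
Share of tested members called higher (red, to the right) or lower (blue, to the left) in haploid early cycle 15 for each of 28 gene lists and for all tested genes, with the number tested in brackets and dotted lines at the 10.4% of all tested genes in each direction. Pair-rule and gap and terminal genes are called only lower, 6 of 9 and 11 of 18, and 12 of 30 maternal transcripts are called higher and 3 lower.

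In lists of housekeeping genes, none of 31 cytoplasmic ribosomal protein genes was called by limma, at a median of 0.01. Mitochondrial ribosomal protein genes gave 10 higher (14.5%) and 12 lower (17.4%) of 69, against 10.4% in each direction over all genes. Their range was wide, from mRpS5, at 2339 to 2805 against 1002 to 1180 (1.24 ± 0.10), to mRpL46, which was below background on all haploid arrays and at least 2.29-fold lower. Between these were mRpS35 (-1.56 ± 0.18) and mRpL47 (-1.41 ± 0.29). The genes mRpS2 and mRpL38, dim in both groups, were lower, at -1.50 ± 0.31 and, as a bound, at least 1.40-fold.

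Of 68 oxidative phosphorylation genes 5 were higher (7.35%), led by the complex I subunit ND-18 (0.69 ± 0.09), and 6 lower (8.82%), led by ND-13B (-0.60 ± 0.17). Both shares were under the 10.4% of all tested genes in each direction. Proteasome subunit genes gave 2 higher (6.45%) and 5 lower (16.1%) of 31. The 5 lower ones were all of the regulatory particle, with Rpn1 at -0.75 ± 0.13 and Rpn2 at -0.78 ± 0.13. Heat shock protein genes gave 1 higher, Hsc70-3 (0.43 ± 0.07, lost on the deposited scale), and 2 lower of 10, among them Hsp26 (-0.55 ± 0.11).

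Centring on the spike controls raised differences as a whole and also ended the lower calls of twi, crb, dpp, Doc1, nkd, fra, egr, Ku80, Delta, neur, BobA, Trl, Z600, trbl, E2f2, RfC3, PolA1, Mcm3, mle, upd1, mRpS2, ND-13B, Rpn1, Rpn2 and Hsp26. Of genes named here as higher it ended the call of Claspin. It moved the counts of higher and lower members to 10 and 2 for the transition regulators, 7 and 1 for mitotic genes, 5 and 1 for replication genes, 7 and 1 for the Dpp list and 21 and 5 for mitochondrial ribosomal protein genes. Leaving out 1 array ended further calls, for 4 arrays with aub, for 2 arrays each with BigH1 and ND-13B, and without haploid replicate 2 for gt, Ku80 and Mcm3. It also ended the calls of Claspin, p53, rad50 and Tom without 1 or more arrays.

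Some of the largest differences were found also between haploid cycle 14 and diploid early cycle 14, both taken 15 min after division 13. These arrays are not part of the main comparison. The maternal γ-tubulin gene gammaTub37C, for microtubule nucleation in the egg, read 1270, 1128 and 1128 in haploids against 57.4, 71.0 and 52.7 in diploids. That is the largest called difference of any gene above background on all 6 arrays (4.29 ± 0.13, adjusted p = 2e-16). At the earlier age it was 3.95, and the diploid mean was 88.4 already in cycle 13.

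The same held for CG1354, at 2487 against 548 in mean (2.18 ± 0.09, and 2.24 at the earlier age), and for DCTN3-p24, a dynactin subunit gene, at 901 against 232 (1.95 ± 0.11 and 2.09). CG32104 (2.29 ± 0.12 and 1.81) and CG6180 (2.73 ± 0.35 and 1.46) also differed at both ages, the latter with diploid arrays spread from 73.5 to 338. CG9380 and CG30460 were below background on all late cycle 14 diploid arrays and at least 4.42-fold and 3.58-fold brighter in haploids. The scaffold gene vari and Flad1 had bounds of at least 4.41-fold and 3.73-fold.

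On the lower side CG12643 was below background on every haploid array of all 3 stages and at 491, 505 and 578 on the late cycle 14 diploid arrays, at least 16.4-fold higher. The calcineurin subunit gene Pp2B-14D read 59.5, 43.1 and 36.4 in haploids against 191, 245 and 333 in diploids (-2.46 ± 0.27, and -3.03 at the earlier age). Arc1, which forms capsid-like particles in neurons, was at 209.7, 257 and 286 against 1223, 1132 and 1332 (-2.30 ± 0.13 and -2.49). A second probe set of Arc1 gave -2.75.

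Large differences at both ages were also found for CtsK1 (-2.11 ± 0.15), Alms1a (-1.78 ± 0.11), kek5 (-1.55 ± 0.16), Prip (-1.68 ± 0.12) and narya (-1.53 ± 0.18). Rnf11 had -2.17 ± 0.33 on its brightest probe set and 0.08 (adjusted p = 0.873) on another that was above background on all 6 arrays, so its difference is uncertain. Obp56a, an odorant-binding protein gene, was below background on all haploid arrays and at least 3.00-fold brighter in diploids at the later age. The haploid excess was larger at the later age for Usp5 (2.88 ± 0.18, and 1.19 earlier), the fatty acid synthase gene FASN1 (2.33 ± 0.21 and 0.78), CR44101 (2.39 ± 0.22 and 0.98) and Flad1 (3.07 ± 0.26 and 1.67 as fitted values).

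Over all genes, the 2 ages shared no arrays and could be set side by side. Of the 1045 genes higher at the later age, 439 were also called higher at the earlier age, 42.0% of the later and 35.4% of the 1241 earlier calls, and 56 were called lower there. Of the 1040 lower genes, 456 were also called lower earlier, 43.8% of the later and 37.8% of the 1205 earlier calls, and 31 were called higher. Over all genes 12.4% and 12.0% were called in these directions at the earlier age (24.4% in either), and over probe sets 1480 were higher (10.2%) and 1507 lower (10.4%). The test of the change between ages called 691 genes above 0 (6.89%) and 499 below (4.97%), and 1418 probe sets (9.74%), 833 above 0 (5.72%) and 585 below (4.02%). All 56 and all 31 genes with opposite calls were among them. These counts rest on quantile normalisation. At the earlier age the median over all probe sets was -0.74 on the deposited scale, and 1.01% of the calls were then higher.

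**Figure D4:**
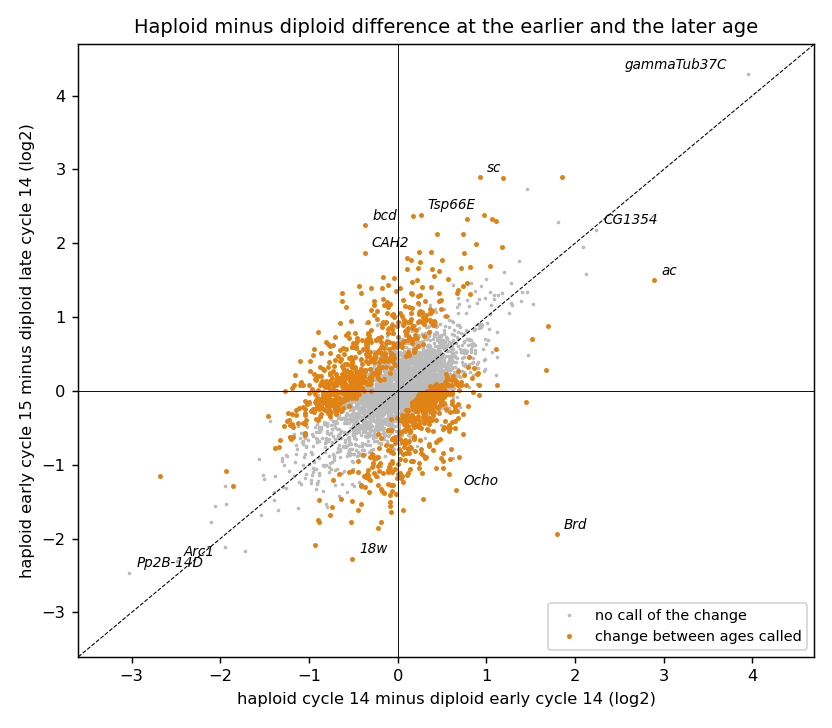
Log2 difference of haploid early cycle 15 minus diploid late cycle 14 (vertical) against haploid cycle 14 minus diploid early cycle 14 (horizontal) for genes above background on all 12 arrays, with a dashed line of equal differences and genes whose change between ages was called in orange. gammaTub37C, CG1354, Arc1 and Pp2B-14D lie near the line, bcd is at -0.36 and 2.24, and Brd is at 1.80 and -1.94.

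Genes were also sorted by their course in the haploids themselves, haploid late cycle 15 minus haploid cycle 14, on arrays outside the comparison. Of 1154 genes that rose at least 2-fold over that span, 536 (46.5%) were lower than in diploids and 10 were higher, with a median difference of -0.69. Of 1209 genes that fell at least 2-fold, 530 (43.8%) were higher and 56 lower, with a median of 0.39. Among 3367 genes that changed by under 0.5 in log2 without a call, 195 were higher and 173 lower, with a median of 0.04.

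Against diploid early cycle 14, which shares the haploid early cycle 15 arrays with the main comparison and is at the same 15 min into the paused cycle, the medians had the other sign. They were 0.33 for the rising genes and -0.58 for the falling genes. With quantile normalisation, haploid early cycle 15 thus lay between the early and late diploid groups in the median of both classes. The medians against diploid early cycle 14 are not given for other scalings. Before scaling, the upper quartile was 184.7 to 214.9 on the diploid early cycle 14 arrays and 96.4 to 121.6 on the haploid early cycle 15 arrays. The signs may therefore depend on the scaling. In the main comparison with spike centring, 220 of the rising genes were called lower and 541 of the falling genes higher.

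**Figure D5:**
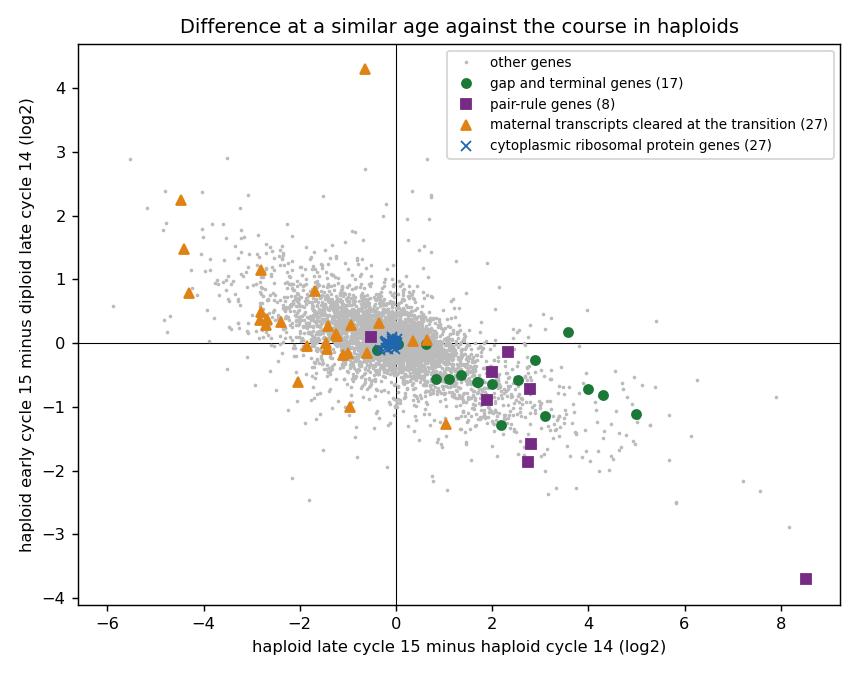
Log2 difference of haploid early cycle 15 minus diploid late cycle 14 (vertical) against haploid late cycle 15 minus haploid cycle 14 (horizontal) for genes above background on all 6 arrays of the comparison, with 4 lists marked. Pair-rule and gap genes lie mostly at the lower right, with opa lowest at -3.70, most maternal transcripts at the left, and ribosomal protein genes near the centre.

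Zygotic genes were also taken as a class by their rise of at least 2-fold from diploid cycle 13 to early cycle 14, outside the compared arrays. Of 325 such genes, 125 were lower in haploids (38.5%) and 21 higher, with a median of -0.47. Longer genes need more time for a transcript to be finished, but the part of this in the results was not tested. A RefSeq gene length was matched for 322. Genes under 2 kb had a median of -0.14 (23 of 91 lower), those of 2 to 5 kb -0.48 (41 of 91), those of 5 to 20 kb -0.62 (35 of 92), and those over 20 kb -0.69 (24 of 48). Over all tested genes the medians of the same length classes lay between -0.01 and 0.06. In haploid cycle 14 against diploid early cycle 14, the zygotic medians of these classes were -0.42, -0.47, -0.51 and -0.82. Over all tested genes they were then 0.13, -0.03, -0.12 and -0.145, so at that age a fall with length was not limited to zygotic genes.

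On single arrays, relative to the mean of the 6, the class over 20 kb was at -0.33, -0.36 and -0.28 in haploids and at 0.44, 0.34 and 0.29 in diploids. The class under 2 kb was at -0.12, -0.11 and -0.10 against 0.17, 0.11 and 0.07. Every array kept the side of its group in both classes, and the gap was wider for the long genes.

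By chromosome, the 36 zygotic genes of the X had a median of -0.21 with 9 lower and 1 higher, and the 283 of the major autosomes -0.49 with 113 lower and 19 higher. In haploid cycle 14 against diploid early cycle 14, these medians were -0.53 and -0.54. The X median minus the autosome median was 0.003 to 0.108 on the haploid arrays and -0.120 to -0.050 on the diploid arrays, with no overlap. An exact permutation test of 3 against 3 arrays cannot give a two-sided p under 0.1, and none is given. The X genes were also shorter, with 12 under 2 kb and 15 of 2 to 5 kb, against 79 and 76 of the autosomal genes. Within length classes the X and autosome medians were both -0.14 under 2 kb, and -0.65 and -0.63 from 5 to 20 kb. They were -0.22 and -0.52 from 2 to 5 kb, and -0.20 and -0.69 over 20 kb. Only 4 and 5 X genes lay in the classes of 5 to 20 kb and over 20 kb.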

How the data were processed

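The deposited values are linear intensities of 18952 probe sets on 18 Affymetrix arrays, made with MAS5 per the submitters' processing notes, which name neither version nor scaling target. All arrays were quantile normalised together, values under 0.1 were raised to it, and log2 was taken. A probe set was tested if 3 or more arrays reached the 40th percentile, which left 14560. Background was 31.9, taken from 20 negative controls (their 95th percentile). Folds of genes whose dimmer group never passed it are lower bounds against it.

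With limma 3.58.1 (R 4.3.3) a model of 6 groups with an intensity trend was fitted over the 18 arrays. P-values were adjusted by Benjamini-Hochberg over tested probe sets. Arrays are biological replicates per the labels, and 3 per group limit the precision. Of the probe sets, 13647 carry a single gene symbol, 402 several and 4720 none. A gene is its brightest probe set. Chromosome arms and lengths are from RefSeq Release 6.

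Named are the largest called differences above background on all 6 arrays, taken only from genes whose groups did not overlap. Also named are the largest with a bound, the largest changes between the ages, those largest at both ages, and list members by size. Tom, Claspin and rad50 were added after their values were seen. The members and lists were chosen with earlier results of these data known. Alternatives were other scalings, filters, floors, an offset, no trend, a replicate block, fewer arrays, and every probe set of a gene. In data simulated for this comparison over 14560 probe sets, 200 were changed, 50 at each fold. Recovery was 62% at 4-fold, 24% at 2-fold and 26% at 1.5-fold, so these shares are imprecise. The data held 2517 calls, and the adjusted threshold depends on the number of changes. The simulated shares therefore may not hold for the data. Replicate numbers did not pair arrays, with deviations correlating at -0.020 to 0.039. A search for promoter motifs was not run.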

Additional observations from a re-analysis of the deposited data

Results flagged for a closer look

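Of 151 genes named in the text, 67 had a haploid minus diploid difference that changed between the ages, by the limma test of the difference between the 2 comparisons. The values here are the log2 difference at the later age minus that at the earlier age, 40 above 0 and 27 below. No cause was tested. All groups have 3 arrays, so single arrays were not screened as outliers. Over all tested probe sets, 9.74% passed this test, 5.72% above 0 and 4.02% below. Some genes were named because they passed this test, so the 67 of 151 cannot be set against that share.

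Among maternal transcripts the change was 2.61 for bcd, 1.32 for swa, 1.25 for smg, 0.84 for osk, 0.67 for gcl, 0.62 for twe and 0.50 for BigH1. It was -1.20 for brat and -1.02 for tud. In genes of similar course it was 2.25 for CAH2, 2.21 for foxo, 2.19 for CG32365, 2.13 for Tsp66E, 1.98 for Sik3 and 1.96 for CG43759. The foxo and Sik3 values involve arrays below background.

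Among early zygotic genes it was 1.97 for sc, 1.69 for nullo, 1.28 for amos, 1.27 for CG13712, 1.11 for CG16813, 1.05 for CG13716, 0.86 for zen2, 0.73 for l(1)sc, 0.66 for zen and 0.38 for scw. For ac it was -1.39, from 2.89 at the earlier age to 1.50 at the later.

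Some genes lower at both ages were less so at the later one, with 0.76 for zld, 0.70 for slam, 0.66 for Z600, 0.59 for trbl and 0.59 for hkb. For hb it was 0.83, with a later difference of -0.01. Of 18 gap and terminal genes 3 had a called change above 0 and 1 below, and of 17 brake and checkpoint genes 2 above and 0 below. Kr (-0.37, then -0.51) and tll (-0.57 at both ages) had no called change. Cell cycle and replication genes gave 1.13 for dup, 0.65 for pim, 0.54 for CycD, 0.34 for CycB, -0.67 for E2f2, -0.78 for Slbp and -0.91 for PolA1.

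Patterning and surface genes that were lower mainly at the later age gave -1.64 for odd, -0.88 for byn, -0.58 for ftz, -0.59 for Doc1, -0.64 for Cyp310a1, -0.47 for crb, -1.18 for Tollo, -1.76 for 18w and -2.71 for comm. Of 14 genes of the Bearded and Enhancer of split list 4 had a called change, all below 0. Among these Brd, Ocho and BobA changed sides, with -3.73, -2.01 and -1.51. Their differences at the earlier age were 1.80, 0.66 and 0.59. Tom (0.55, then 0.34) and E(spl)m4-BFM (1.02, then 0.69) were higher at both ages, with no called change. The kinase gene Ack, with -1.71, changed sides as well, from 0.58.

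The Polycomb group gene Pc gave -1.68, Pex10 -1.75, Herp -1.73, CG5199 -1.62 and mRpS35 -1.47. The genes mRpL46 (-3.74), CG13339 (-2.76) and NC2alpha (-2.65) were above background only on the diploid late cycle 14 arrays among these 4 groups, so their values have no lower limit on one side. The remaining values were 1.70 for Usp5, 1.54 for FASN1, 1.41 for CR44101, 1.40 for Flad1, 0.68 for tra2, 0.61 for Rpn2 and 0.59 for Rpn1.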

How the results depend on the processing

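The number of probe sets called between haploid early cycle 15 and diploid late cycle 14 was 2517, and 1977 to 2249 without 1 array, of which 1006 to 1124 were higher and 971 to 1157 lower. The replicate block gave 2563, and it changed no call of the 146 called genes named here. Scaling mattered more. The higher count was 480 on the deposited scale and 682 with ribosomal protein centring, and the lower count was 354 with spike centring. Of the 146 genes, 98 were called in all 17 alternatives and 127 in all but spike centring, which turned grp to 0.12 and zld to 0.014. Spike centring was chosen after seeing the data.

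The earlier comparison and the change between ages depend far more on scaling. The earlier comparison gave 2987 calls, 2191 to 2891 without 1 array (higher 1039 to 1371, lower 1152 to 1520), 6914 on the deposited scale and 5862 with spike centring. Its higher count of 1480 became 70, 494, 233 and 44, and its lower count of 1507 became 6844, 1734, 2455 and 5818, on the deposited scale and with median, ribosomal and spike centring.

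The change was called for 1418 probe sets, and for 968 to 1577 without 1 array (above 0, 602 to 917; below 0, 366 to 660). The lowest count below 0 came without diploid early cycle 14 replicate 2. It was 3582 on the deposited scale, 6475 with spike centring and 835 without the intensity trend. Changes above 0 numbered 3535, 6464 and 494 there, against 833. Changes below 0 were 585, and became 47, 169, 125 and 11 over the 4 scalings, 947 with values raised to background and 341 without the trend. The share of changes above 0 was 58.7%, and 98.7%, 83.6%, 88.6% and 99.8% with these scalings. The deposited scale turned crb to 0.19, ftz to 0.14, Doc1 to 0.12 and Cyp310a1 to 0.11. Spike centring turned these to 0.71, 0.65, 0.63 and 0.62, and E2f2 to 0.50, Slbp to 0.46, byn to 0.29, PolA1 to 0.23, tud to 0.47 and Tollo to 0.15. With every probe set of a gene, the medians of the cellularization and of the transition regulator lists, relative to all genes, moved from -0.23 to 0.01 and from 0.11 to -0.06. Levels under background are not resolved, which limits the size of differences of dim genes.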
